A study of Rattus norvegicus with 8 samples.

Results

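The nuclear genes for the subunits of the 5 oxidative phosphorylation complexes were chosen by symbol (Nduf followed by a, b, c, s or v and a number, Sdha to Sdhd, Uqcr, Cyc1, Cox4 to Cox8, and Atp5). Of the 28546 gene rows of the count table, 88 had such a symbol, and 78 of these reached 10 counts in at least 3 libraries. They comprised 35 members of complex I, 4 of complex II, 9 of complex III, 14 of complex IV (Ndufa4 included) and 16 of complex V, and all 78 passed the low-count filter of the fit. The libraries are RNA-seq of cultured Sprague Dawley rat pup astrocytes, and every group met 12-273 BM melanoma cells or their medium. In control (n = 2) the melanoma cells carried a scrambled hairpin, those of sh-APP (n = 3) carried one directed at the amyloid precursor (APP), and the anti-Abeta group (n = 3) combined the scrambled hairpin with an anti-amyloid beta antibody. The labels call the exposure a co-culture in one field and 24 h in melanoma-conditioned medium in another, and they name 1 melanoma culture, 1 hairpin design and no age of the pups. No group without melanoma exposure was analysed here. The comparisons ask how astrocytes differ when APP is targeted in the melanoma cells or the antibody is added. These data give no level of amyloid beta.

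Oxidative phosphorylation is the last stage of respiration. Complex I takes electrons from NADH and complex II from succinate, coenzyme Q carries them to complex III, and cytochrome c carries them on to complex IV, which reduces oxygen. Complexes I, III and IV pump protons across the inner mitochondrial membrane, and complex V, the ATP synthase, uses their return to make ATP. Most subunits are encoded in the nucleus, and a small core of every complex except complex II is encoded in mitochondrial DNA. Astrocytes are known for high glycolysis beside this respiration.

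Library totals ran from 34250464 to 47831595 counts, and the TMM scaling factors were 0.90 and 0.92 in control and 0.99 to 1.06 in the other libraries. The 13 mitochondrially encoded protein genes took 5.04% and 6.21% of the counts in control, 1.96% to 2.50% in sh-APP and 3.005% to 3.62% in anti-Abeta. Within groups, pairs of libraries differed by 17.4 to 20.9 times counting noise (chi-square per degree of freedom), except for the pairs with anti-Abeta replicate 2, at 31.8 and 46.9. The 9 astrocyte markers summed to 15686 to 16044 CPM (counts scaled to a common library total) in control, 16872 to 19351 in sh-APP and 13777 to 14774 in anti-Abeta. Neuron markers (6 of 7 tested) summed to 308 to 336, 131 to 141 and 208 to 267 CPM in the same order, with Slc17a6 at 0. The lineage markers of oligodendrocytes summed to 2307 to 2387, 2737 to 2892 and 2686 to 3015. In sh-APP against control, 6 astrocyte markers were called higher and 1 lower. Neuron markers were split, with 2 called higher and 2 lower, and oligodendrocyte lineage markers had 1 higher and 1 lower. In anti-Abeta against control, astrocyte markers had 3 higher and 3 lower, neuron markers 0 and 2, and oligodendrocyte lineage markers 2 and 0. Over all tested genes 53.7% were called in sh-APP and 29.2% in anti-Abeta. Sox10 belongs to both the oligodendrocyte lineage list and the melanocyte and melanoma list. Pericyte and fibroblast markers summed to 18.9 to 23.1, 30.4 to 33.1 and 21.0 to 26.3 CPM, with 2 of 5 tested called higher in sh-APP, and melanocyte and melanoma markers to 45.1 to 46.9, 29.7 to 31.3 and 32.2 to 48.0, with 1 of 3 called lower. Microglia markers summed to 0.081 to 0.417, 0.89 to 1.59 and 0.685 to 0.97 CPM, with Cx3cr1 at 0, and endothelial markers to 0 to 0.0834, 0.229 to 0.45 and 0.122 to 0.485, with Cldn5 at 0. In each of these last 2 lists 1 gene was called higher in sh-APP. The sh-APP and control sums did not overlap for any of the marker lists, those of astrocytes, neurons and the oligodendrocyte lineage included. The part of these shifts in the results below was not tested, and in bulk RNA fewer cells of a type and less RNA per cell cannot be told apart.

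With the APP hairpin in the melanoma cells, astrocytes showed calls in both directions within each complex when all libraries were used. With each library left out in turn, complex II did not keep its higher call. In complex V just Atp5s, which entered by symbol, kept a lower one. In sh-APP against control, 29 of the 78 subunit genes were higher and 24 lower (67.9% called at an adjusted p under 0.05, edgeR), against 53.7% of all 14445 tested genes (25.8% higher and 27.9% lower). The median log2 fold change of the 78 was 0.09, beside 0.03 over all tested genes, and their median absolute change was 0.42, beside 0.49. By complex, 10 members rose and 10 fell in complex I, 1 and 1 in complex II, 5 and 3 in complex III, 6 and 5 in complex IV, and 7 and 5 in complex V. In anti-Abeta against control, 18 rose and 22 fell (51.3%), against 29.2% of all tested genes (12.7% higher and 16.6% lower), with a median of 0.02 beside 0.03. Calls were more frequent among abundant genes, and 57 of the 78 members lie in the top quintile of mean CPM. Within that quintile 45 of 57 members (78.9%) were called in sh-APP, beside 79.8% of all genes there, and 34 of 57 (59.6%) in anti-Abeta, beside 59.3%, so at that level the members' share was near the background. Both comparisons use the same 2 control libraries. Without control replicate 1 the anti-Abeta calls were 1 higher (Cox5b) and 0 lower by edgeR, with 17 and 14 at an unadjusted p under 0.05. With library totals alone in place of TMM, sh-APP had 43 higher and 16 lower, and the median of all tested genes moved to 0.23, so every fold change here is relative to the scaling.

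**Figure D1:**
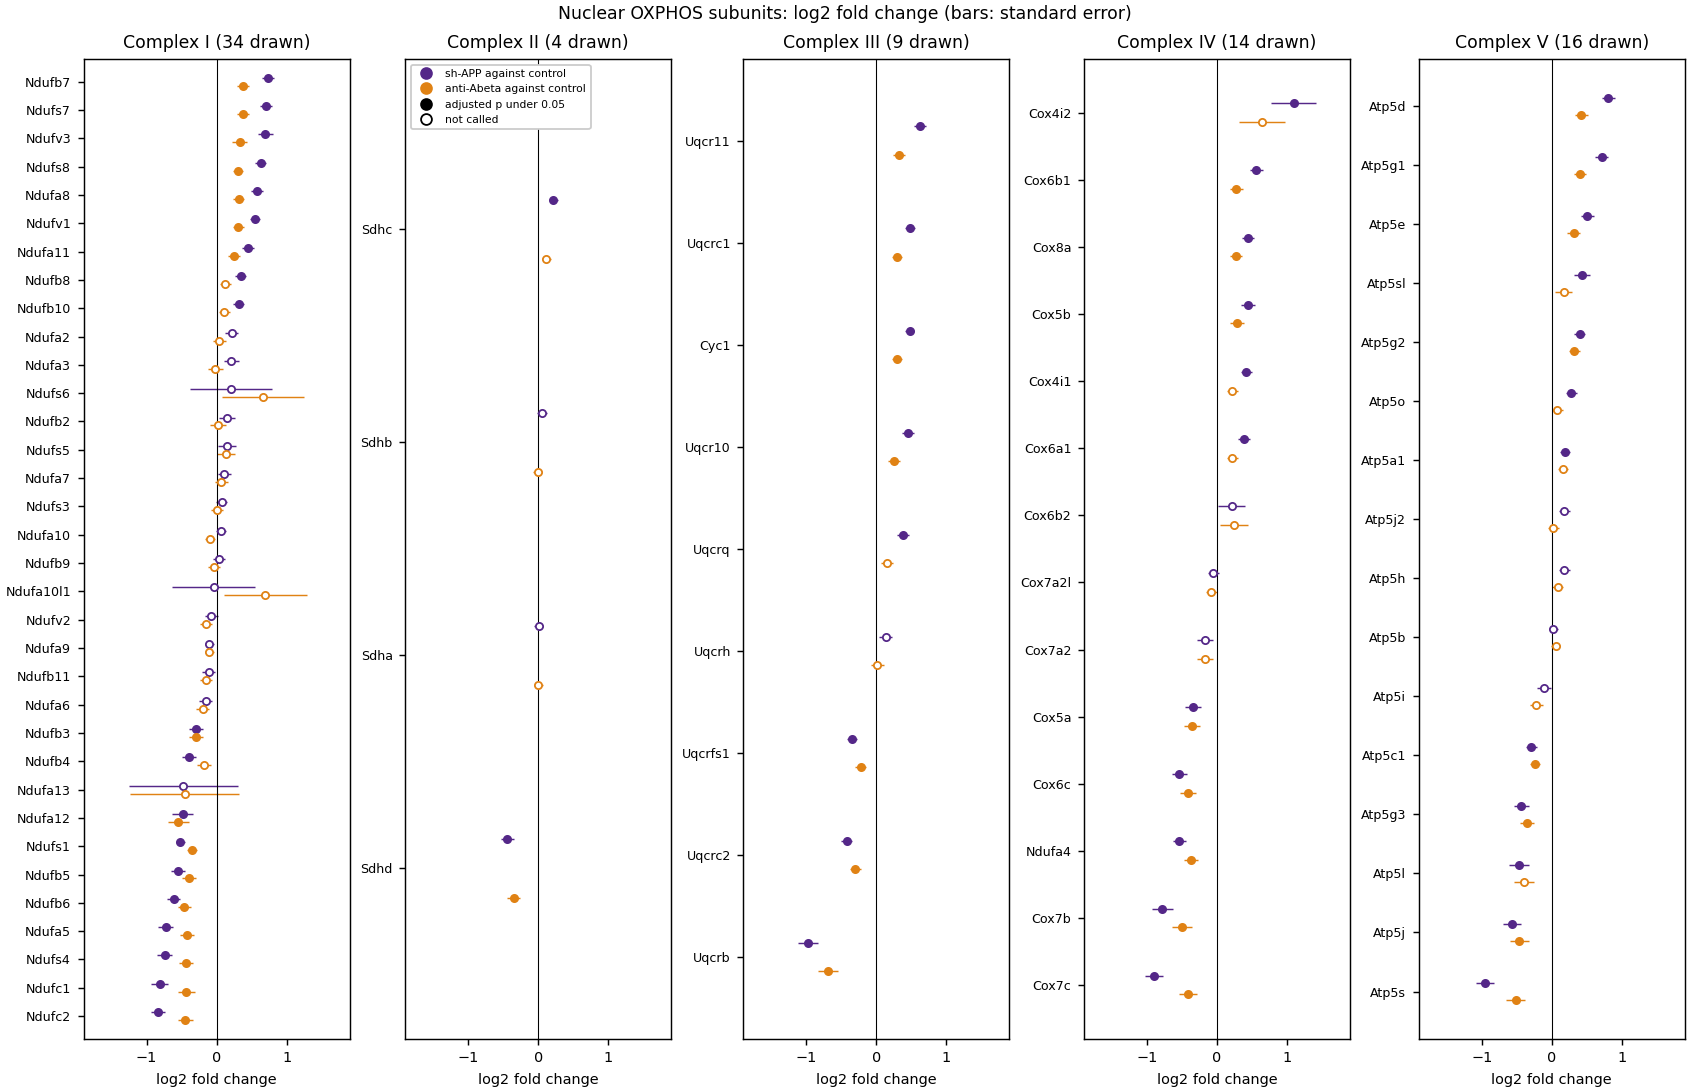
Each row is a nuclear subunit gene of the complex named above its panel, and the x axis gives its log2 fold change against control, with bars for the standard error. Purple marks sh-APP (n = 3) and orange anti-Abeta (n = 3), each against control (n = 2), filled where the adjusted p is under 0.05 (edgeR); in each panel called genes lie on both sides of 0, with 29 higher and 24 lower in sh-APP over all members, 1 of which is not drawn.

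Complex I has a peripheral arm with an NADH-oxidising N module and a coenzyme Q-reducing Q module, and a membrane arm that pumps protons. In the N module 2 of 8 members rose and 3 fell in sh-APP. Ndufv1, which holds the NADH site, had 197 and 208 CPM in control, 298, 291 and 301 in sh-APP and 259, 231 and 264 in anti-Abeta. Anti-Abeta lay between the other groups, with no overlap, and the log2 fold change was 0.55 ± 0.08 (SE, adjusted p = 8.44e-05) in sh-APP and 0.31 ± 0.08 (SE, adjusted p = 0.0117) in anti-Abeta. Ndufv3, a small accessory subunit beside it, rose by 0.70 ± 0.10 in sh-APP. Ndufs1, the large iron-sulfur subunit next in the electron path, went the other way. It had 319 and 313 CPM in control, 210.5, 224 and 228 in sh-APP and 252, 250.2 and 239 in anti-Abeta, and the 3 groups again did not overlap. Its change was -0.52 ± 0.07 (SE, adjusted p = 5.35e-05) in sh-APP and -0.35 ± 0.07 (SE, adjusted p = 0.00431) in anti-Abeta. Ndufs4, an accessory subunit whose loss causes Leigh-like disease, had 215 and 191 CPM in control, 115, 136 and 112 in sh-APP and 136, 162 and 151 in anti-Abeta. All treated libraries lay below both controls, with a change of -0.74 ± 0.10 (SE, adjusted p = 7.63e-05) in sh-APP and -0.44 ± 0.10 (SE, adjusted p = 0.01) in anti-Abeta, while sh-APP and anti-Abeta overlapped. Without control replicate 1 these anti-Abeta calls had adjusted p of 0.0543 to 0.125. Ndufv2, an iron-sulfur partner of Ndufv1, was not called (-0.07 ± 0.09, adjusted p = 0.506). Ndufa12 fell by 0.49 on the log2 scale in sh-APP, but its adjusted p was 0.318 without control replicate 1 and 0.0533 without sh-APP replicate 3.

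In the Q module 3 of 8 members rose and 1 fell. Ndufs7, which carries the last iron-sulfur cluster before coenzyme Q, had 112 and 116 CPM in control, 196, 187 and 176 in sh-APP and 141, 139.7 and 163 in anti-Abeta. The groups were ordered control, anti-Abeta, sh-APP without overlap. Its change was 0.71 ± 0.09 (SE, adjusted p = 3.34e-05) in sh-APP, 0.38 ± 0.09 (SE, adjusted p = 0.00876) in anti-Abeta, and 0.34 ± 0.08 (SE, adjusted p = 0.00762) for sh-APP against anti-Abeta. The anti-Abeta call had adjusted p = 0.101 without control replicate 1. Ndufs8, which carries a pair of iron-sulfur clusters, had 126 and 131 CPM in control, 199, 209 and 189 in sh-APP and 155, 154 and 167 in anti-Abeta. It showed the same order, with 0.63 ± 0.08 (SE, adjusted p = 3.09e-05) in sh-APP. Ndufs3, another core subunit of this module, was not called (0.07 ± 0.08, adjusted p = 0.466). Ndufa5, an accessory subunit, had 153 and 126 CPM in control, 76.4, 93.7 and 82.3 in sh-APP and 103, 109.8 and 98.7 in anti-Abeta. The groups fell in the order control, anti-Abeta, sh-APP without overlap, with -0.73 ± 0.10 (SE, adjusted p = 9.39e-05) in sh-APP.

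Among the 19 nuclear members of the membrane arm 5 rose and 6 fell. Ndufb7, an accessory subunit on the intermembrane-space side, had 75.3 and 74.8 CPM in control, 124, 132 and 119 in sh-APP and 102, 88.0 and 103 in anti-Abeta. Each group stood clear of the next, with 0.74 ± 0.09 (SE, adjusted p = 2.98e-05) in sh-APP, 0.38 ± 0.09 (SE, adjusted p = 0.00886) in anti-Abeta and 0.36 ± 0.08 (SE, adjusted p = 0.00624) between the 2 treatments. Ndufa8, another subunit of that side, rose by 0.58 ± 0.08 in sh-APP. Ndufc2, a small membrane-spanning subunit, moved in the other direction. It had 235 and 206 CPM in control, 111, 142 and 117 in sh-APP and 158, 168 and 161 in anti-Abeta, without overlap between any groups. The change was -0.84 ± 0.10 (SE, adjusted p = 3.15e-05) in sh-APP, -0.45 ± 0.10 (SE, adjusted p = 0.00886) in anti-Abeta and -0.40 ± 0.09 (SE, adjusted p = 0.00898) for sh-APP against anti-Abeta. Ndufc1, another small subunit, changed by -0.81 ± 0.12 in sh-APP and -0.43 ± 0.12 in anti-Abeta. Ndufb6 had 147 and 139 CPM in control, 86.6, 106 and 87.7 in sh-APP and 101, 102 and 108 in anti-Abeta. Both treated groups lay below control and overlapped each other, with -0.61 ± 0.09 (SE, adjusted p = 0.000143) in sh-APP and -0.46 ± 0.09 (SE, adjusted p = 0.00501) in anti-Abeta. The anti-Abeta calls of Ndufb7, Ndufc2, Ndufc1 and Ndufb6 had adjusted p of 0.0656 to 0.141 without control replicate 1. The stretches of 100 bases before the start of Ndufb7 and Ndufa5 are shown (RefSeq, build GRCr8, 5′ to 3′ on the gene's strand). In each direction, the called member of complex I with the smallest p in sh-APP that held a match there was taken. Matches were sought for the NRF1, ETS and YY1 types described below, so a match was a condition of being shown. Capitals mark an ETS-type match CCGGAAG in Ndufb7 and an NRF1-type match, GCGC, any 2 bases and GCGC, in Ndufa5.
Ndufb7 promoter, chr19:41477292-41477391, - strand: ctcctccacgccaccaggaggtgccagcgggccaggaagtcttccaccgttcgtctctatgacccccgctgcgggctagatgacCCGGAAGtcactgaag
Ndufa5 promoter, chr4:53971236-53971335, - strand: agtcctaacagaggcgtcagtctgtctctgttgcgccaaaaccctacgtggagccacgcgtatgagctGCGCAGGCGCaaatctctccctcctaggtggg

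Complex II is succinate dehydrogenase, with all 4 subunits encoded in the nucleus. Neither subunit of its catalytic head was called in any comparison. Sdha, the flavoprotein, had 503 and 527 CPM in control, 502, 526 and 519.6 in sh-APP and 524, 509.9 and 513 in anti-Abeta, and these ranges overlapped. Its change was 0.00 ± 0.06 (SE, adjusted p = 0.97) in sh-APP and 0.00 ± 0.06 (SE, adjusted p = 0.99) in anti-Abeta, and Sdhb, the iron-sulfur subunit, gave 0.05 ± 0.07 (SE, adjusted p = 0.544) in sh-APP. The 2 membrane anchors were called in opposite directions. Sdhd had 278 and 238 CPM in control, 184, 206 and 178 in sh-APP and 187, 206 and 212 in anti-Abeta. Both treated groups lay below the controls, with -0.44 ± 0.09 (SE, adjusted p = 0.00141) in sh-APP and -0.35 ± 0.09 (SE, adjusted p = 0.0155) in anti-Abeta. The anti-Abeta call of Sdhd was lost without control replicate 1 (0.181). Sdhc had 509.7 and 519.7 CPM in control, 603, 599 and 591 in sh-APP and 560.5, 549 and 561 in anti-Abeta. It was ordered upward without overlap, with 0.22 ± 0.06 (SE, adjusted p = 0.0119) in sh-APP, and that call was lost without control replicate 1 (adjusted p = 0.0626).

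In complex III, the cytochrome bc1 complex, 5 of 9 members rose and 3 fell in sh-APP, with a median log2 fold change of 0.39. Libraries of sh-APP and control did not overlap for any of the 9, nor for 61 of all 78 members. The share over all tested genes was not counted for this pair of groups, so these counts do not show a trait of complex III or of the members. The catalytic subunits moved apart. Cyc1, cytochrome c1, had 205 and 215 CPM in control, 296, 299 and 279.8 in sh-APP and 262, 251 and 259 in anti-Abeta. The order was upward without overlap, with 0.47 ± 0.07 (SE, adjusted p = 0.000108) in sh-APP and 0.29 ± 0.07 (SE, adjusted p = 0.00929) in anti-Abeta. Uqcrfs1, the Rieske iron-sulfur protein, had 252 and 246 CPM in control, 193, 203 and 190.1 in sh-APP and 217, 224 and 197 in anti-Abeta. Both treated groups were below control, with -0.35 ± 0.07 (SE, adjusted p = 0.00163) in sh-APP, a call lost under library totals alone (0.115). The core proteins also moved in opposite directions. Uqcrc1 had 449.6 and 500.3 CPM in control, 665, 668 and 656 in sh-APP and 591, 555 and 603 in anti-Abeta, upward without overlap, a change of 0.48 ± 0.07 (SE, adjusted p = 0.000153) in sh-APP. Uqcrc2, its partner in the matrix domain, had 282 and 253 CPM in control, 193, 213 and 191 in sh-APP and 211, 212 and 228 in anti-Abeta. It fell by 0.42 ± 0.08 (SE, adjusted p = 0.000668) on the log2 scale in sh-APP, and both treated groups lay under both controls. Among the small subunits, Uqcrb, which sits near the coenzyme Q site, had the largest drop of the 78 members in sh-APP. It had 269 and 214 CPM in control, 112, 149.6 and 106 in sh-APP and 139, 141 and 167 in anti-Abeta. All treated libraries lay below the controls, with -0.98 ± 0.14 (SE, adjusted p = 0.000114) in sh-APP and -0.70 ± 0.14 (SE, adjusted p = 0.00553) in anti-Abeta, and the 2 treatments overlapped. The anti-Abeta calls of Cyc1 and Uqcrb were lost without control replicate 1 (0.108 and 0.0911). Uqcr11 rose by 0.62 ± 0.09 in sh-APP, Uqcr10 by 0.46 ± 0.08 and Uqcrq by 0.39 ± 0.09, and the hinge protein gene Uqcrh was not called (0.13). The 100 bases before the start of the 2 core protein genes are shown, chosen as in complex I for a match there. The source is the same, with capitals for an NRF1-type match in Uqcrc1 and an ETS-type match read on the opposite strand in Uqcrc2. Their products stand side by side and their mRNAs moved apart.
Uqcrc1 promoter, chr8:118468123-118468222, + strand: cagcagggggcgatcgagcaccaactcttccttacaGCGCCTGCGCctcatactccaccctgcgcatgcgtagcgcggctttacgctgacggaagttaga
Uqcrc2 promoter, chr1:184599140-184599239, + strand: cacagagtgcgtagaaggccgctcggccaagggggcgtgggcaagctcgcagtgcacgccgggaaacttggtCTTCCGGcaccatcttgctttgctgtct

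In complex IV, cytochrome c oxidase, 5 of the 11 ubiquitous nuclear subunits rose and 5 fell in sh-APP. Cox4i1, the largest nuclear subunit and a site of ATP regulation, had 141 and 139 CPM in control, 186, 193 and 181 in sh-APP and 164, 149.8 and 174 in anti-Abeta. Its groups were ordered upward without overlap, with 0.42 ± 0.08 (SE, adjusted p = 0.000656) in sh-APP and 0.22 ± 0.08 (SE, adjusted p = 0.0521) in anti-Abeta. Cox5b, the zinc-binding subunit, had 118 and 92.3 CPM in control, 145, 145 and 139.9 in sh-APP and 129, 121 and 135 in anti-Abeta. It followed the same order, with 0.45 ± 0.10 (SE, adjusted p = 0.0022) in sh-APP. Cox5a, its neighbour in the enzyme, had 111 and 91.6 CPM in control, 73.9, 92.9 and 73.5 in sh-APP and 76.5, 75.4 and 85.6 in anti-Abeta. Its sh-APP and control ranges overlapped, and the change of -0.34 ± 0.12 (SE, adjusted p = 0.0277) was lost without control replicate 1 (0.323), sh-APP replicate 1 (0.0868) or sh-APP replicate 3 (0.0948). Cox6b1, which links the 2 monomers of the enzyme, had 64.7 and 63.3 CPM in control, 93.1, 100.03 and 90.7 in sh-APP and 78.3, 70.0 and 84.5 in anti-Abeta. Upward order without overlap gave 0.56 ± 0.09 (SE, adjusted p = 0.000226) in sh-APP. Cox6a1 and Cox8a rose by 0.39 ± 0.08 and 0.45 ± 0.08. Cox7c, a small single-helix subunit, had 213 and 192 CPM in control, 97.5, 112 and 117 in sh-APP and 159.6, 174 and 122 in anti-Abeta. It was ordered downward without overlap, with -0.89 ± 0.13 (SE, adjusted p = 0.000109) in sh-APP, -0.42 ± 0.13 (SE, adjusted p = 0.0314) in anti-Abeta and -0.48 ± 0.12 (SE, adjusted p = 0.0117) between the treatments, the last lost without sh-APP replicate 1 (0.0524). Cox7b, another single-helix subunit, had 126 and 124 CPM in control, 65.2, 87.8 and 65.6 in sh-APP and 71.8, 90.3 and 103 in anti-Abeta. Both treated groups lay under the controls, with -0.78 ± 0.15 (SE, adjusted p = 0.000769) in sh-APP, and Cox6c changed by -0.53 ± 0.11. Ndufa4, once assigned to complex I and now known as a subunit of complex IV, had 383 and 342 CPM in control, 232, 286 and 232 in sh-APP and 275, 272 and 293 in anti-Abeta. It fell in both groups, with -0.53 ± 0.10 (SE, adjusted p = 0.00055) in sh-APP and -0.37 ± 0.10 (SE, adjusted p = 0.0153) in anti-Abeta. Without control replicate 1 the anti-Abeta values became 0.216 for Cox7c and 0.15 for Ndufa4.

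Complex IV also has isoforms tied to tissue or oxygen. Cox4i2, the isoform known from lung and low oxygen, had 0.751 and 1.08 CPM in control, 1.73, 1.86 and 2.29 in sh-APP and 1.37, 1.54 and 1.39 in anti-Abeta. The order was upward without overlap at these low levels, with 1.10 ± 0.32 (SE, adjusted p = 0.0124) in sh-APP (0.105 without control replicate 1, so the call did not hold), and 0.64 ± 0.32 (SE, adjusted p = 0.157) in anti-Abeta. Cox6b2, known from testis, stayed at 2.89 to 3.77 CPM and was not called (0.21 ± 0.20, adjusted p = 0.396). Cox7a2 and the supercomplex factor Cox7a2l were not called either (-0.17 and -0.05). The muscle isoforms Cox6a2 and Cox7a1 were under the count rule, with 1 to 16 and 3 to 12 counts per library, and Cox7b2 and Cox8c had 0 counts in all 8 libraries. Cox8b had 1 count in all libraries together. Ndufa4l2, a hypoxia-linked relative of Ndufa4, had 6 and 2 counts in sh-APP replicates 1 and 3 and 0 in the other 6 libraries.

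In complex V the F1 head makes ATP, the c ring turns in the membrane, and a stalk holds the head still. Of the 5 F1 members 3 rose and 1 fell in sh-APP. Atp5d, the delta subunit of the rotor, had 193 and 203 CPM in control, 359, 362 and 319.6 in sh-APP and 247, 253 and 297 in anti-Abeta. The groups were ordered upward without overlap, with 0.81 ± 0.09 (SE, adjusted p = 2.37e-05) in sh-APP, 0.43 ± 0.09 (SE, adjusted p = 0.00711) in anti-Abeta and 0.39 ± 0.08 (SE, adjusted p = 0.00558) between the treatments. The catalytic beta subunit gene Atp5b had 1829.8 and 1849 CPM in control, 1869, 1887 and 1864 in sh-APP and 1983, 1879.9 and 1891 in anti-Abeta. Its change was 0.03 ± 0.07 (SE, adjusted p = 0.763) in sh-APP. Atp5a1, the alpha subunit, had 798 and 826 CPM in control, 945, 925 and 915 in sh-APP and 930.1, 869 and 931 in anti-Abeta. The change of 0.19 ± 0.07 (SE, adjusted p = 0.0282) was lost without control replicate 1 (0.129) and without each sh-APP library in turn (0.0503 to 0.0885). Atp5c1, the gamma subunit of the rotor, had 359.9 and 319.8 CPM in control, 272, 289 and 274 in sh-APP and 293, 280.1 and 291 in anti-Abeta. Both treated groups lay below control, with -0.29 ± 0.07 (SE, adjusted p = 0.00506) in sh-APP, lost without control replicate 1 (0.0885) and under library totals alone (0.376). Atp5e, the epsilon subunit, rose by 0.51 ± 0.10. The anti-Abeta call of Atp5d had adjusted p = 0.0954 without control replicate 1.

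The 3 c-ring genes encode the same mature protein with different leader peptides, and they did not move together. Atp5g1 had 121 and 125 CPM in control, 199, 216 and 189 in sh-APP and 161, 148 and 178 in anti-Abeta. It was ordered upward without overlap, with 0.72 ± 0.09 (SE, adjusted p = 4.09e-05) in sh-APP. Atp5g2 had 190.0 and 199.5 CPM in control, 259.9, 269 and 242 in sh-APP and 258, 231 and 243 in anti-Abeta. Both treated groups lay above control, with 0.40 ± 0.08 (SE, adjusted p = 0.000843) in sh-APP and 0.33 ± 0.08 (SE, adjusted p = 0.0101) in anti-Abeta. The anti-Abeta call of Atp5g2 was lost without control replicate 1 (0.108). Atp5g3 had 512 and 463 CPM in control, 347, 407 and 327 in sh-APP and 357, 362 and 426 in anti-Abeta. Both groups lay below control, with -0.43 ± 0.10 (SE, adjusted p = 0.00368) in sh-APP, lost without control replicate 1 (0.0571) and under library totals alone (0.0719). In the stalk, Atp5j, known as coupling factor F6, had 367 and 318 CPM in control, 212, 280.1 and 202 in sh-APP and 224, 246 and 275 in anti-Abeta. Treated libraries were all below control, with -0.57 ± 0.13 (SE, adjusted p = 0.00291) in sh-APP, lost without control replicate 1 (0.0527). Atp5o, the subunit that gives oligomycin sensitivity, changed by 0.28 ± 0.08 (SE, adjusted p = 0.0106), lost without control replicate 2 (0.0617), and Atp5h was not called (0.18). Atp5l changed by -0.47 ± 0.14, with adjusted p = 0.183 without control replicate 1 and 0.0562 without sh-APP replicate 3. Atp5s and Atp5sl entered by symbol, but RefSeq lists them as Dmac2l and Dmac2, names given for assembly of the distal membrane arm of complex I. Atp5s had 42.8 and 48.2 CPM in control, 22.3, 24.1 and 24.3 in sh-APP and 27.4, 38.1 and 29.9 in anti-Abeta. It was ordered downward without overlap, with -0.95 ± 0.13 (SE, adjusted p = 7.6e-05) in sh-APP. Atp5sl changed by 0.43 ± 0.12 (SE, adjusted p = 0.00714), lost without control replicate 1 (0.0928). The 100 bases before the start of Atp5g2 (NRF1-type match in capitals), which rose, and Atp5j (ETS-type match in capitals), which fell, are shown. Both were chosen as in complex I for a match there.
Atp5g2 promoter, chr7:135678219-135678318, - strand: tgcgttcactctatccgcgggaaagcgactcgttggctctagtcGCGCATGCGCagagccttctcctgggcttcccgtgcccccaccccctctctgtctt
Atp5j promoter, chr11:37375102-37375201, - strand: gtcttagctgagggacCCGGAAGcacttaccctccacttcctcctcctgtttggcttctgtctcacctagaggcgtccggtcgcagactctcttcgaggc

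**Figure D2:**
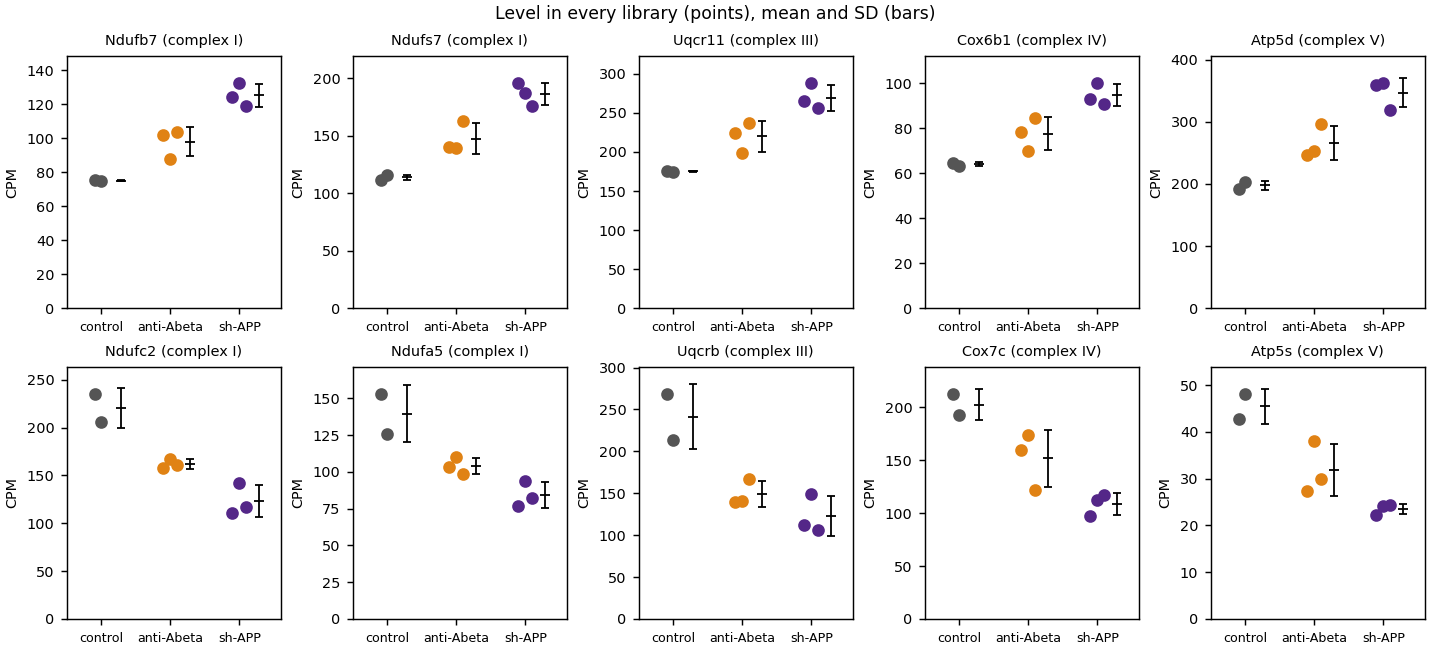
Each panel gives the CPM (TMM-scaled, linear axis from 0) of 1 gene in every library by group, with the mean and SD beside the points. The upper row shows a selection of members called higher in sh-APP and the lower row a selection of members called lower. In all panels except Uqcrb the anti-Abeta libraries lie between control and sh-APP without overlap, as for Atp5d at 247 to 297 CPM. The lower row is not typical in this: of all 78 members 5 fell in that order (6.41%), against 14.6% of all tested genes. In the upward order were 22 (28.2%), against 12.3%.

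Summed over all members, the nuclear level stayed close to control with TMM scaling. The 78 nuclear members together had 14794 ± 417 CPM in the control libraries (mean ± SD), 15003 ± 670 in those of sh-APP and 14538 ± 499 under the antibody, so the group means were within the spread between libraries. Complex I summed to 4035 ± 168, 3982 ± 190 and 3843 ± 131 CPM in the same order, and complex V to 5377 ± 100.4, 5513 ± 235 and 5396 ± 207. Complex III stood highest relative to control, at 1875 ± 25.4 CPM in control, 2070 ± 91.1 in sh-APP and 1925 ± 74.3 in anti-Abeta, and its 3 sh-APP libraries (2046, 2171 and 1994) were above both controls (1893 and 1857). The sh-APP to control ratio of the summed members was 1.01 with TMM, 1.00 with size factors of DESeq2's kind, 1.08 with upper-quartile factors and 1.17 with library totals alone. Complexes I and IV were below control in sh-APP with TMM (0.987 and 0.951) and above it with library totals alone (1.14 and 1.10), so their direction depends on the scaling.

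The mitochondrially encoded partners of these subunits were lower under each of the 4 scalings. The 13 genes summed to 69007 and 54607 CPM in control, 22297, 24007 and 18759 in sh-APP and 35420, 33864 and 29287 in anti-Abeta, and no library of either treatment reached a control. The ratio to control was 0.351 in sh-APP and 0.532 in anti-Abeta, and 0.405 and 0.591 with library totals alone. All 13 were called lower in both comparisons (9 of 13 in anti-Abeta without control replicate 1), with median log2 fold changes of -1.53 and -0.86, and 12 of 13 were lower in sh-APP than in anti-Abeta (median -0.67). By complex, the sh-APP to control ratio of the encoded part was 0.386 for complex I, 0.428 for complex III, 0.382 for complex IV and 0.263 for complex V, while the nuclear part of the same complexes stood at 0.987, 1.10, 0.951 and 1.03. Leaving the 13 genes out of the fit altogether also gave 29 higher and 24 lower nuclear members in sh-APP.

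**Figure D3:**
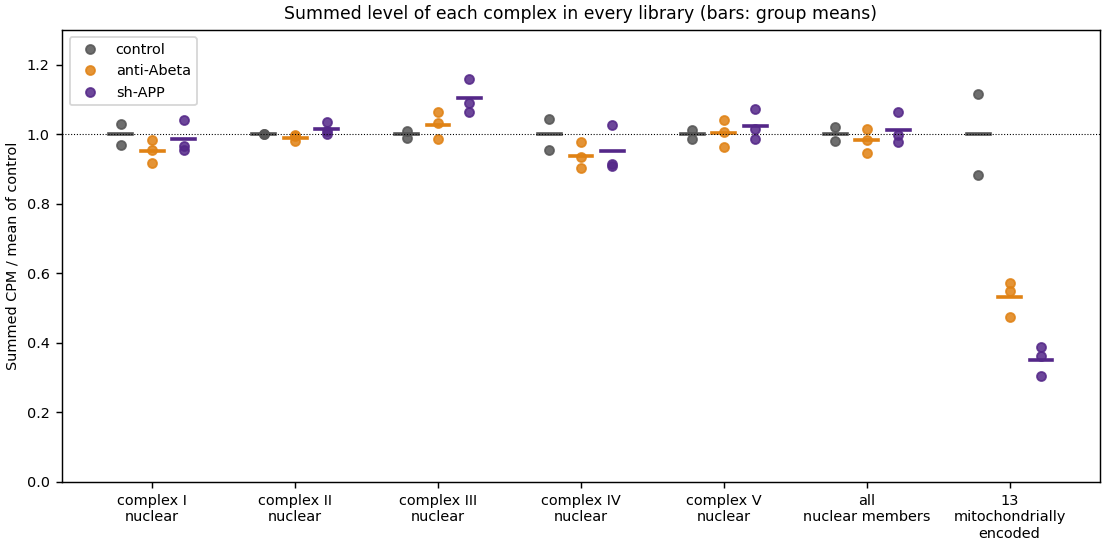
Each point is the summed CPM of 1 library divided by the mean of the 2 control libraries (linear axis from 0), for the nuclear members of each complex, all 78 together, and the 13 mitochondrially encoded genes, with bars for group means. The nuclear sums lie near 1 in every group (1.01 in sh-APP and 0.983 in anti-Abeta for all 78 with TMM; 1.17 and 1.09 with library totals alone), and the encoded sums lie at 0.351 and 0.532.

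Calls were recounted with each library left out. The anti-Abeta calls rested on control replicate 1. Without it 1 of 40 calls was left, while 2.92% of all genes tested there were called, against 29.2% with all libraries. Without anti-Abeta replicate 1, 12 were higher and 9 lower, and without anti-Abeta replicate 3, 9 and 19. Of all tested genes, 20.5% and 18.1% were called in these fits, so calls became fewer over all genes too. In sh-APP, 23 of the 29 higher and 17 of the 24 lower calls survived the removal of every single library, and the counts ran from 25 to 32 higher and from 17 to 24 lower. Complex III kept its 5 higher and 3 lower calls in each of these fits, and complex V kept 4 of 7 higher and 1 of 5 lower.

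**Figure D4:**
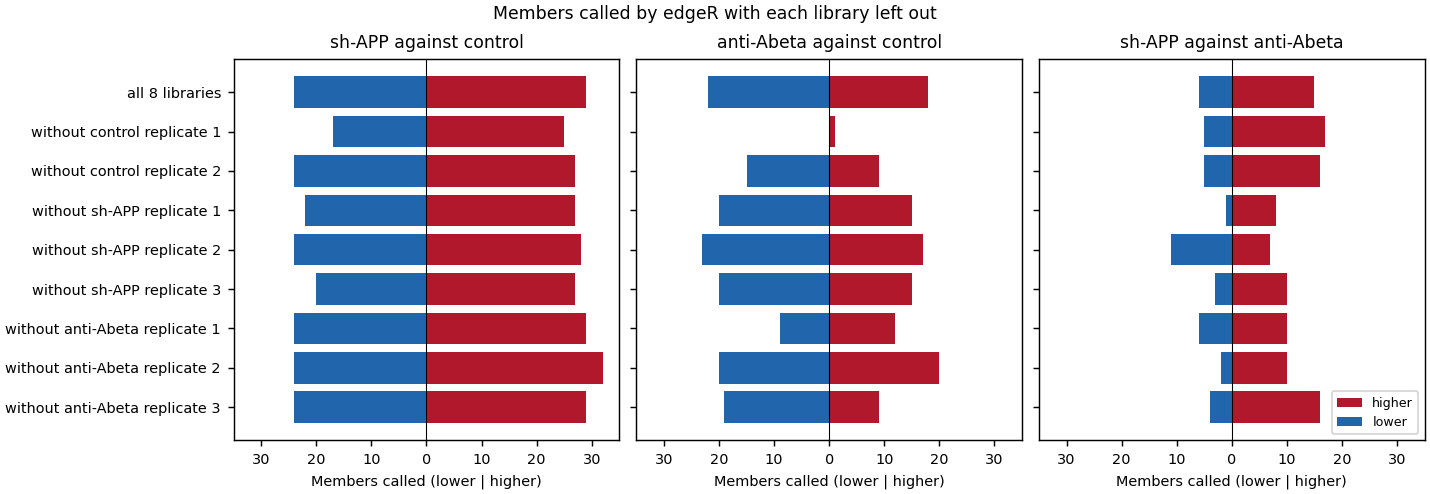
Bars give the number of the 78 members called lower (blue, to the left) and higher (red, to the right) by edgeR with all 8 libraries and with each library left out, for the 3 comparisons. The sh-APP counts stay between 17 and 32 on each side, and the anti-Abeta counts drop to 1 higher and 0 lower without control replicate 1.

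Ordering the groups without overlap of libraries as control, anti-Abeta, sh-APP gave 22 members that rose (28.2%), against 12.3% of all tested genes, and 5 that fell (6.41%), against 14.6%. In the top quintile of mean CPM the shares were 33.3% of 57 members against 23.3% of all genes for rising, and 7.02% against 30.4% for falling. The 22 covered every complex: 8 of complex I, 1 of complex II (Sdhc), 5 of complex III, 6 of complex IV and 2 of complex V. The 5 were Ndufs1, Ndufa5 and Ndufc2 of complex I, Cox7c and Atp5s. Tested directly, sh-APP differed from anti-Abeta in 15 members that were higher and 6 that were lower (26.9%), against 26.1% of all tested genes (10.1% higher and 16.0% lower). In the top quintile of mean CPM, 19 of 57 members (33.3%) were called, beside 48.8% of all genes there. The median difference of the 78 was 0.06 on the log2 scale, beside -0.01 over all tested genes. Calls that held under each alternative and each library left out were 6 of the 15 higher and 1 of the 6 lower. Among them were Ndufb7, Ndufs7, Ndufs8, Ndufv3 and Atp5d (0.37 ± 0.09 for Ndufv3) and, in the other direction, Ndufc2. Atp5g1 was the sixth higher one, at 0.31 ± 0.08 (SE, adjusted p = 0.0138). The counts changed with several libraries: without sh-APP replicate 1 there were 8 higher and 1 lower, without replicate 2, 7 and 11, and without replicate 3, 10 and 3. Without anti-Abeta replicate 1 it had 10 and 6, without replicate 2, 10 and 2, and without replicate 3, 16 and 4. The share of all tested genes called was 15.6%, 23.0% and 17.9% in the fits without an sh-APP library, in that order. In those without an anti-Abeta library it was 21.5%, 18.8% and 24.9%, against 26.1% with all libraries.

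Properties other than the complex were set beside these changes. Subunit genes are short: 47 of 78 fell in the shortest quintile of all tested genes by span from start to end of the gene (up to 8417 bases in build GRCr8). Over all tested genes, the median log2 fold change in sh-APP went from 0.33 in the shortest quintile through 0.18 and 0.00 to -0.15 and -0.16 in the longest. The members followed that order, with medians of 0.18 (n = 47), 0.11 (n = 19) and -0.20 (n = 10) in the first 3 quintiles, and each lay below the median of all genes in its quintile. In the shortest quintile 20 rose and 11 fell, in the second 8 and 7, and in the third 1 and 5. Over all tested genes with a span, 41.8% were higher and 15.9% lower in the shortest quintile. Those shares were 35.5% and 25.1% in the second and 27.3% and 32.9% in the third. The median span was 6241 bases for members called higher, 9560 for those called lower and 6975 for those not called, beside 15410.5, 33588.5 and 28445 bases over all tested genes. Anti-Abeta showed the same order over all genes (0.19, 0.12, 0.00, -0.08 and -0.08). The part of gene span in the calls was not tested.

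**Figure D5:**
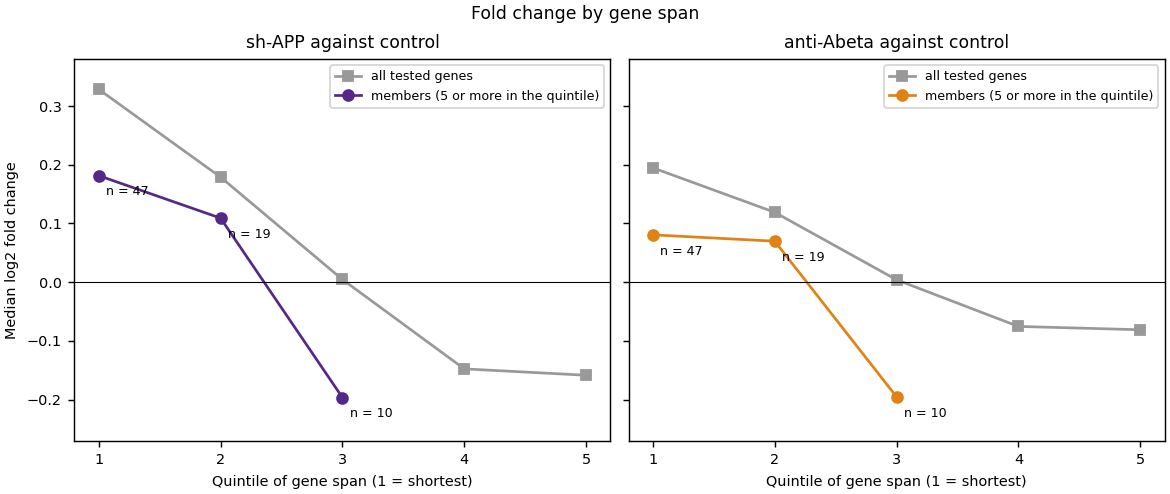
The y axis is the median log2 fold change against control and the x axis the quintile of gene span (1 is the shortest), for all tested genes (grey squares) and for members where a quintile holds 5 or more (circles, with their number). Both lines go down from the shortest quintile, from 0.33 to -0.16 for all genes and from 0.18 to -0.20 for members in sh-APP.

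Promoters were searched for 6 short motifs on both strands, from 250 bases before to 50 after the start, for the 66 of 78 members with an entry in RefSeq's GRCr8 table. The NRF1-type motif (GCGC, any 2 bases, GCGC) was in 15 (22.7%), beside 12.9% of the promoters of tested genes and 5.58% of all in the table. The ETS-type CCGGAAG, the kind bound by GABPA, was in 19 (28.8%, beside 17.1% and 8.75%), and the YY1-type AAGATGGCG in 10 (15.2%, beside 3.78% and 1.73%). CCAAT was in 21 (31.8%, beside 37.5% and 37.5%), TATAAA in 5 (7.58%, beside 6.62% and 14.2%) and the GC box CCGCCC in 26 (39.4%, beside 63.1% and 33.1%). Of 22 higher and 22 lower members in sh-APP with a promoter, the NRF1-type letters were in 5 and 5, the ETS type in 7 and 5, the YY1 type in 3 and 2, CCAAT in 7 and 4, TATAAA in 1 and 1 and CCGCCC in 6 and 9. A match describes letters in this window and shows no binding.

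Other genes of the pathway came from lists by function, not picked for how they moved but drawn up with earlier results of these data known. Of 46 tested assembly factors, 9 rose and 24 fell in sh-APP and 1 rose and 14 fell in anti-Abeta, with medians of -0.26 and -0.14. These are shares of 71.7% and 32.6%, beside 53.7% and 29.2% of all tested genes. Without control replicate 1 the counts were 3 higher and 16 lower in sh-APP, and 0 and 2 in anti-Abeta by edgeR (1 and 13 at an unadjusted p under 0.05). In sh-APP the factors of complex I counted 3 higher and 9 lower of 15, those of complex IV 2 and 9 of 19, those of complex III 3 and 2 of 6, those of complex V 1 and 2 of 3, and those of complex II 0 and 2 of 3. Cox20, a chaperone of mitochondrially encoded Cox2, changed by -1.31 ± 0.10 (log2, SE), Tmem126b, which helps build the membrane arm of complex I, by -0.86 ± 0.10, and Atpaf1, the F1 assembly factor, by -0.80 ± 0.10. Cox14, which also acts early in complex IV assembly, rose by 0.64 ± 0.09. Coenzyme Q and electron carrier genes counted 9 higher and 5 lower of 19 in sh-APP (73.7% called, beside 25.8% higher and 27.9% lower over all tested genes), with Coq8b at 0.87 ± 0.08 and Coq10b at -1.15 ± 0.10. The citric acid cycle counted 5 and 7 of 15, with Mdh2 at 0.41 ± 0.07 and Sucla2 at -1.03 ± 0.09, and mitochondrial transport and import 4 and 11 of 20 (75.0%), with Tomm40 at 0.68 ± 0.09 and Tomm20 at -1.09 ± 0.14. Among regulators of these genes, 5 rose and 7 fell of 16 (75.0%). These shares were not matched for level. Polrmt, the mitochondrial RNA polymerase, rose by 0.83 ± 0.13, Tfb2m, its transcription factor, changed by -1.38 ± 0.14, and Hif1a, the oxygen-regulated factor, by -1.01 ± 0.09. None of these named calls was lost when any single library was removed. Ndufab1, the acyl carrier subunit of complex I, lies outside the symbol pattern and changed by -0.74 ± 0.15 in sh-APP.

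Some members need care in counting. Ndufa1 had 0 or 1 count in each library and Atp5f1, the stalk's b subunit, 4 to 16, and both fell under the count rule, as did Ndufb4l1 and the pseudogene Cox6c-ps1. Just inside the rule were Ndufa13, Ndufs6 and Ndufa10l1, all under 1 CPM in every library, and none of these 3 was called. Such rows are uncertain where near-identical gene copies share their reads, which was not tested. In GRCr8, 29 of the 78 members overlap another gene, and with strandedness not given in the sources used here their reads cannot be told apart from those of the neighbour. Among them were Atp5d (Cbarp), Atp5j (Gabpa), Atp5b, Atp5c1, Atp5g2, Atp5sl, Cox4i2, Cox7a2, Cox7a2l, Cox7c, Cox8a, Ndufa12, Ndufs3, Ndufs4, Ndufs7, Ndufv1, Sdha, Uqcr10, Uqcrc2, Uqcrfs1 and Uqcrq, several of them with a small RNA, a pseudogene or a locus with no name.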

How the data were processed

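RNA-seq counts were analysed for 8 libraries. The authors deposited raw counts per gene symbol, checked here to be whole numbers. Per the submitters' processing notes, the tools included STAR 2.6.0a and HTSeq 0.11.1, with build rn6, beside Trimmomatic 0.36, FastQC 0.11.7, SAMtools 1.9 and DESeq2 1.24.0. Settings and strandedness: not given in the sources used here.

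Of 28546 gene rows, 8853 held no count, and filterByExpr (minimum count 10, minimum total 15) kept 14445. All 8 libraries entered 1 fit in edgeR 4.0.16 (R 4.3.3) with TMM factors and a term for group, which left 5 residual degrees of freedom. Each contrast used the robust quasi-likelihood test with Benjamini-Hochberg adjustment over all tested genes and a threshold of 0.05. CPM are TMM-scaled. The labels do not say that libraries are separate cultures, and p-values then reflect just the variation among these libraries, which may be technical. On simulated counts for sh-APP against control, 34.3% of 67 genes altered 1.5-fold were found by edgeR. The share was 64.2% of 67 for 2-fold and 87.9% of 66 for 4-fold, with 12 false calls among 14228 genes. In the real contrast 53.7% of tested genes were called, far more than were altered here, so these rates may not carry over to it.

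Members, gene lists, markers and tests were chosen with earlier results of these data known. Named members are up to 4 called per contrast, complex and direction with the smallest p, the catalytic and core subunits, and the tissue isoforms; of each other list, up to 2 per direction. A selection is printed, and 1 member is counted but not reported by name here. Further members, such as those under the count rule and those just inside it, were named after their values were seen. Motifs were likewise chosen after the data were seen. The gene and promoter tables are of GRCr8, a later build than rn6, and were matched by symbol (78 of 78 members and 89.8% of tested genes in the gene table). Alternatives were DESeq2 1.42.0, limma-voom (limma 3.58.1), other scalings and filters, the non-robust fit, fits of only the groups compared, a fit without mitochondrially encoded genes, the replicate block, and each library left out.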

Additional observations from a re-analysis of the deposited data

How the results depend on the processing

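No call of a member reversed under any alternative run. In sh-APP against control, DESeq2 and limma-voom each called 29 higher and 24 lower, as edgeR did, and leaving out each library gave 25 to 32 higher and 17 to 24 lower. In anti-Abeta against control, left-out libraries gave 1 to 20 higher and 0 to 23 lower, and in sh-APP against anti-Abeta 7 to 17 higher and 1 to 11 lower. With library totals alone, anti-Abeta had 28 higher and 8 lower (77.8% of calls higher, beside 45.0%), sh-APP against anti-Abeta 24 higher, and sh-APP against control 72.9% of calls higher, beside 54.7%; the medians of all tested genes moved to 0.23 (sh-APP) and 0.18 (anti-Abeta). With upper-quartile factors the median in sh-APP moved to 0.11, with 33 members higher and 22 lower, and anti-Abeta had 22 and 18. The median over members in sh-APP was 0.30 with library totals alone, 0.18 with upper-quartile factors and 0.15 without control replicate 1. With the replicate number as a block, anti-Abeta had 11 higher and 17 lower, sh-APP 27 and 23, and sh-APP against anti-Abeta 10 and 6. Correlations of deviations from group means ran from -0.01 to 0.11 in same-numbered pairs and from -0.108 to 0.026 in the others. The highest were between sh-APP and anti-Abeta replicate 1 (0.105) and replicate 2 (0.098). The deviations of the 2 controls mirror each other, so pairs with a control cannot decide the question. The main fit did not take the numbers to pair the libraries, and a weak pairing is not excluded. Without 1 control library, the other is assumed to vary like the treated groups. The 2 control libraries and their difference limit every comparison with control.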
